A study of Mus musculus with 167 samples.

Results

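Abhd1 and the 4 genes whose levels were most clearly tied to it on the Htt side of chromosome 5, namely Atraid, Pisd, Ppp1cb and Slc35f6, were followed across all mouse liver RNA-seq libraries of the study. These 5 genes, out of 39179 gene identifiers in the tables, were chosen by their measured levels, which moved with Abhd1 over these same libraries, so their differences between genotypes are given as a description and not as a test. Each library was polyA RNA from frozen liver of C57BL/6 mice. The Q20, Q80, Q92, Q111, Q140 and Q175 groups were heterozygous for a knock-in allele of Htt, the huntingtin gene, with the CAG repeat length given in the name of the line, and were compared with wild-type (WT) mice. The ages were 2, 6 and 10 months, with 8 libraries for each genotype at each age, 4 from females and 4 from males, except that Q80 had 3 females and 5 males at 2 months and 4 females and 3 males at 10 months. WT thus had 24 libraries, Q80 had 23 and each other line 24. The labels number the replicates but do not say that each came from a separate animal, so p-values measure the spread between these libraries. All 24 WT libraries are labelled as housed with Q20 mice, and each knock-in line as housed with its own kind, so for the lines other than Q20 the housing and the genotype cannot be told apart. At 6 months the WT libraries carry another form of library name than the knock-in libraries, and name form and genotype cannot be told apart there.

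Abhd1 belongs to the α/β-hydrolase-fold family, whose members include lipases, lysophospholipases and thioesterases, and its own substrate is not settled. Pisd is the phosphatidylserine decarboxylase of the inner mitochondrial membrane, which makes phosphatidylethanolamine from phosphatidylserine. Ppp1cb is the beta catalytic subunit of protein phosphatase 1, the enzyme that, with its targeting subunits, removes phosphate from glycogen enzymes in liver and from myosin light chain. Atraid is a membrane glycoprotein of the lysosome first described as induced by all-trans retinoic acid, and Slc35f6 is a lysosomal membrane protein of the nucleotide-sugar-transporter-like SLC35 family. Genes that lie close together on a chromosome are inherited together more often than distant ones. The genotypes of these genes were not analysed here.

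All 5 genes lie upstream of Htt on chromosome 5 in the GRCm38 annotation. Slc35f6 (ENSMUSG00000029175) spans 30647933 to 30659729 on the plus strand. Abhd1 (ENSMUSG00000006638) spans 30950066 to 30955091 on the plus strand and is typed as a processed transcript by GENCODE and as a transcribed pseudogene by RefSeq. Atraid (ENSMUSG00000013622) spans 31048312 to 31054623 on the plus strand. Ppp1cb (ENSMUSG00000014956) spans 32458843 to 32517433 on the plus strand, and Pisd (ENSMUSG00000023452) spans 32736301 to 32785646 on the minus strand. Their starts lie 4.11 Mb (Slc35f6), 3.81 Mb (Abhd1), 3.71 Mb (Atraid), 2.30 Mb (Ppp1cb) and 2.03 Mb (Pisd) from the start of Htt at 34761740.

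The reference sequence of Abhd1 carries a 1-base step that separates its annotated transcripts. Whether this step bears on how the gene is typed was not examined. Abhd1-202, 1 of 7 annotated transcripts, runs through the plus strand at chr5:30954141-30954170 inside its exon 6. Abhd1-201 ends its exon 6 at 30954154 and starts its exon 7 at 30954156, so it leaves out base 30954155, which is in capitals in the first of these lines.
Abhd1-202: tcgcaggactgaccAttgtctgcatgttgg
Abhd1-201: tcgcaggactgaccttgtctgcatgttgg
The gene Preb, on the minus strand at 30950853 to 30960361, overlaps 4239 bases of Abhd1 and covers 8 of the 9 exons of Abhd1-202, 1169 of its 1352 bases. Preb encodes the endoplasmic reticulum exchange factor for Sar1, and whether counting used the strand is not given in the sources used here, so reads from Abhd1 and Preb could have been shared.

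The promoters of Atraid and Pisd are shown because these were the partners whose levels followed Abhd1 most closely, in opposite directions. They are taken from RefSeq (GRCm38.p6), each 250 bases before to 50 after the start, with every CCAAT or GGGCGG in capitals, also where the motif lies on the other strand and reads there as its reverse complement.
Atraid, chr5:31048390-31048689, plus strand: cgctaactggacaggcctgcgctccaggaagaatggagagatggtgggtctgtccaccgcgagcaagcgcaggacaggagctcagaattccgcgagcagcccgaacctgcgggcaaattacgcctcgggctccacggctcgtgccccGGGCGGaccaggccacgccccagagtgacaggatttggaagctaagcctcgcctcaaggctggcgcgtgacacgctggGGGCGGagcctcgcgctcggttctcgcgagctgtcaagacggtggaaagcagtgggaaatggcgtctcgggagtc
Pisd, chr5:32785577-32785876, minus strand: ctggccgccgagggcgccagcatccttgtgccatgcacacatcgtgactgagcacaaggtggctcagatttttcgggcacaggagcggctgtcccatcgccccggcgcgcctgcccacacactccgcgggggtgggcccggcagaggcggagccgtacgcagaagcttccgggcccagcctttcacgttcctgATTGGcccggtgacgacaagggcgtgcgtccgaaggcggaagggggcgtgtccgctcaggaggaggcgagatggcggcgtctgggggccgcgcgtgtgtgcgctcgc
The Atraid promoter held 29 CpG and 2 GGGCGG, and the upstream Pisd promoter held 34 CpG and 1 CCAAT in its reverse form, against a median of 7 CpG over 32851 mouse promoters. The Ppp1cb promoter held 31 CpG and 3 GGGCGG, the Slc35f6 promoter 16 CpG and 1 GGGCGG, and a second Pisd promoter 5 CpG and 1 GGGCGG. None of these 5 promoters held TATAAA or CACGTG on either strand. Over all mouse promoters in the table, read on both strands, CCAAT occurred in 37.4%, GGGCGG in 35.7%, TATAAA in 13.6% and CACGTG in 7.15%. No promoter entry matched Abhd1.

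Abhd1 was either high or low, with nothing between. In CPM (the reads of a gene scaled to a common library size, by counts per library and the trimmed mean of M values), the sorted libraries left a gap of 2.32 on the log2 scale between 2.95 and 15.1 CPM. Above the gap stood 134 libraries, 132 of them knock-in (15.1 to 30.2 CPM, expected counts 516 to 1440.3) and 2 WT (21.3 CPM in a 2-month female, 18.6 CPM in a 10-month male). Below it stood 33 libraries, 11 knock-in (1.11 to 2.95 CPM) and 22 WT (1.08 to 2.59 CPM), with expected counts from 32.7 to 145 among all 33. The low state was therefore not a count of 0. Whether reads of the overlapping Preb are part of these counts was not tested. Every library had the same state with other size factors, on FPKM values (fragments per kilobase, scaled to library size), and when each age was split on its own.

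The median level was close to 20 CPM in every knock-in line. It was 19.2 CPM in Q20, 20.9 in Q80, 20.2 in Q92, 20.9 in Q111, 20.3 in Q140 and 20.1 in Q175 libraries, and 1.83 CPM in WT libraries. On the scale per length, the knock-in median was 15.4 FPKM and the WT median 1.38 FPKM. Single libraries within a line varied more widely, from 17.2 to 30.2 CPM over the 23 libraries of Q80, and differences between the lines were not tested.

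**Figure D1:**
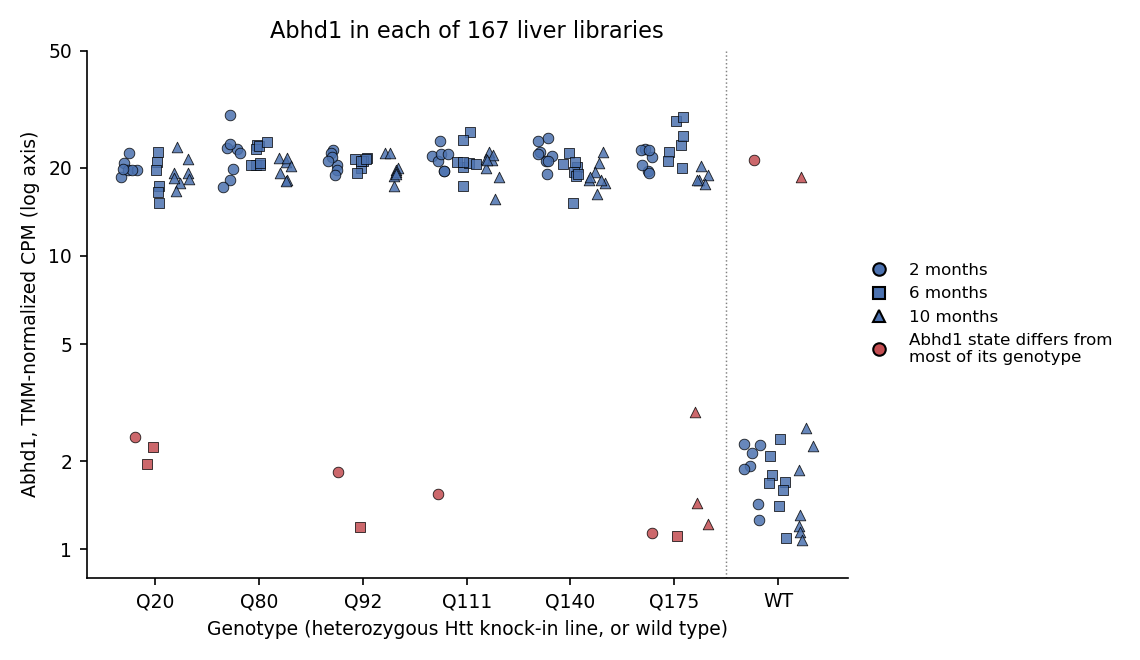
Abhd1 in each liver library, as normalized CPM on a log axis, by genotype, with symbols for age; red points are the 13 libraries on the other side of the gap from most of their genotype. Of the knock-in libraries 132 lie at 15.1 CPM or above and 11 at 2.95 CPM or below, and of the 24 WT libraries 22 lie at 2.59 CPM or below.

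The number of exceptions differed between the lines, and these differences were not tested. Low libraries numbered 3 of 24 in Q20, 0 of 23 in Q80, 2 of 24 in Q92, 1 of 24 in Q111, 0 of 24 in Q140 and 5 of 24 in Q175, and 2 of 24 WT libraries were high. In Q20 the low libraries were females F4 at 2 months (2.41 CPM), F2 at 6 months (1.95 CPM) and F4 at 6 months (2.24 CPM). In Q175 they were male M2 at 2 months (1.14 CPM), male M2 at 6 months (1.11 CPM) and, at 10 months, males M2 (1.44 CPM) and M3 (1.22 CPM) and female F4 (2.95 CPM). In Q92 they were males M1 at 2 months (1.83 CPM) and M4 at 6 months (1.19 CPM), and in Q111 male M1 at 2 months (1.55 CPM). All 3 low Q20 libraries were female and 7 of the 8 others were male; over the knock-in lines 4 of 71 female and 7 of 72 male libraries were low. By age, low knock-in libraries made up 4 of 48 at 2 months, another 4 of 48 at 6 months, and at 10 months 3 of 47. The high WT libraries were female F4 at 2 months and male M1 at 10 months, and all 8 WT libraries at 6 months were low. The low knock-in libraries did not stand between the states: females ran from 1.95 to 2.95 CPM beside low WT females at 1.14 to 2.37 CPM, and males from 1.11 to 1.83 CPM beside low WT males at 1.08 to 2.59 CPM.

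The other 4 genes had no such states. Their widest gaps, with at least 10 libraries on each side, were 0.02 to 0.04 on the log2 scale, so each formed 1 continuous range and is described by its values.

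Atraid was lower in knock-in than in WT livers. It ran from 39.3 to 62.5 CPM with a median of 46.3 in the knock-in libraries, against 47.1 to 67.8 CPM with a median of 57.0 in the 24 WT libraries. The line medians lay between 45.2 (Q80) and 48.4 CPM (Q175), and 2 knock-in libraries stood above the WT median of their age, with 141 at or below it. At 6 months the ranges of Q20, Q80, Q111, Q140 and Q175 did not overlap with that of WT (52.5 to 67.8 CPM), whereas Q92 overlapped with a highest library at 53.4 CPM. At 2 and 10 months all lines overlapped with WT. Over all genes tested, 2.77% of gene and line pairs did not overlap at 6 months, 0.038% at 2 and 0.0195% at 10 months. At 6 months the form of library name and the genotype cannot be told apart. In FPKM the medians were 47.4 in knock-in and 55.6 in WT libraries.

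Pisd was higher in knock-in livers, at 22.7 to 35.5 CPM with a median of 28.9, against 20.5 to 31.2 CPM with a median of 24.7 in WT livers. It stood above the WT median of its age in 136 knock-in libraries and not in 7. The line medians lay between 28.2 (Q20) and 29.4 CPM (Q92). At 6 months, where library names differed, Q111 (28.8 to 35.5 CPM) and Q140 (27.4 to 29.7 CPM) did not overlap with WT (20.5 to 26.7 CPM). In FPKM the medians were 13.5 in knock-in and 11.4 in WT libraries. Pisd has processed copies elsewhere in the genome, and counts that are split between such copies are uncertain.

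Ppp1cb was lower in knock-in livers by a smaller margin. It ran from 75.5 to 123 CPM with a median of 99.3 in knock-in libraries, against 97.2 to 120.1 CPM with a median of 108 in WT libraries. The gap was widest at 6 months, where library names differed, with a knock-in median of 90.3 CPM and a WT median of 109.9 CPM. At 2 months the knock-in median was 102 CPM and the WT median 107 CPM, and at 10 months they were 103 CPM in knock-in and 107 CPM in WT libraries. Slc35f6 was higher in knock-in livers, from 12.4 to 21.1 CPM with a median of 16.1, against 12.5 to 17.2 CPM with a median of 14.7 in WT livers. Neither gene separated any line from WT without overlap at any age. In FPKM, Ppp1cb had medians of 17.2 in knock-in and 18.8 in WT libraries, and Slc35f6 6.59 in knock-in and 5.68 in WT libraries.

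**Figure D2:**
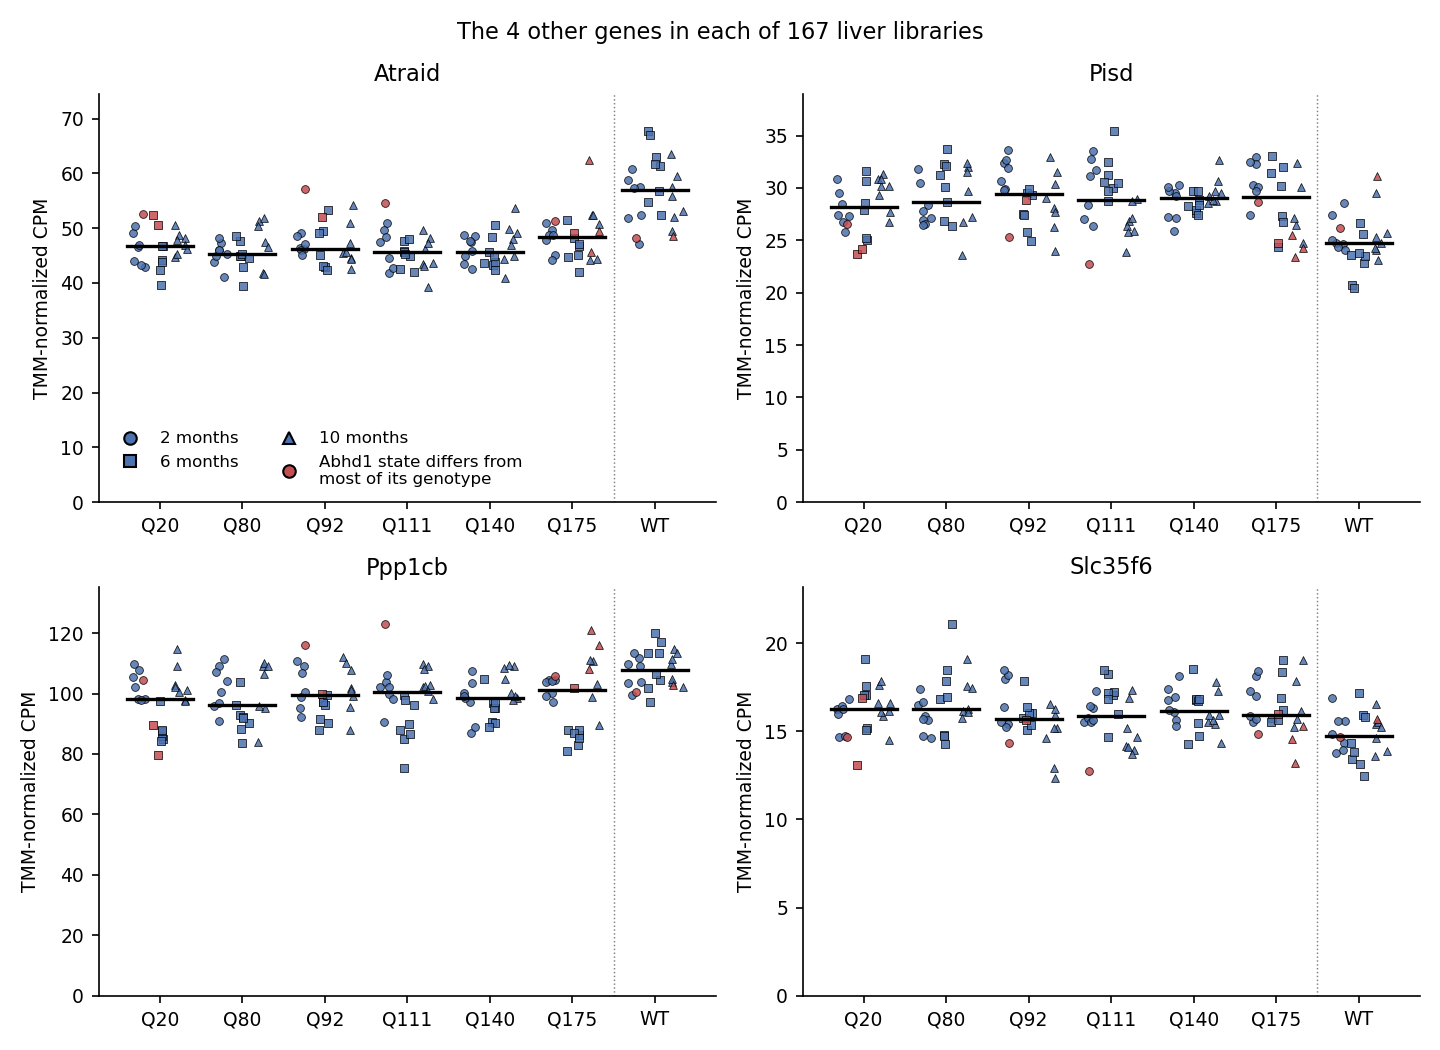
The 4 other genes in each library, as normalized CPM, by genotype, with symbols for age, black bars for the median of each genotype, and the 13 libraries of unusual Abhd1 state in red. The knock-in medians lie below WT for Atraid (46.3 against 57.0 CPM over all lines) and Ppp1cb, and above it for Pisd and Slc35f6.

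Over the 18 comparisons of a line with WT of the same age, Abhd1 had a higher median in 18, Pisd in 18 and Slc35f6 in 16, whereas Atraid had a lower median in 18 and Ppp1cb in 17. The exceptions were Q92 and Q111 at 10 months for Slc35f6 and Q175 at 10 months for Ppp1cb. Ranges did not overlap in 3 of the 18 for Abhd1 (Q80, Q111 and Q140 at 6 months), 5 for Atraid, 2 for Pisd and 0 for Ppp1cb and Slc35f6. Over all genes tested, the ranges did not overlap in 0.943% of gene and comparison pairs, with 0.038% at 2 months, 2.77% at 6 months and 0.0195% at 10 months, so the members' counts, which used the libraries that chose them, are given for description only. The 18 comparisons share their WT libraries within an age.

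As a log2 fold change of each line over WT, averaged over 2 and 10 months in edgeR's quasi-likelihood fit, Abhd1 was higher by 2.21 ± 0.31 (SE) in Q20, 2.39 ± 0.31 in Q80, 2.26 ± 0.31 in Q92, 2.29 ± 0.31 in Q111, 2.35 ± 0.31 in Q140 and 1.93 ± 0.30 in Q175. Atraid had log2 fold changes of -0.21 in Q20, -0.23 in Q80, -0.20 in Q92, -0.24 in Q111, -0.23 in Q140 and -0.15 in Q175, each with an SE of 0.04. Pisd ranged from 0.11 (Q111) to 0.20 (Q92), with an SE of 0.04 in each line. Slc35f6 ranged from 0.03 (Q111) to 0.13 (Q80) and Ppp1cb from -0.09 (Q140) to -0.03 (Q175), with SEs of 0.04 and 0.03. Each gene kept 1 direction in all 6 lines, which its choice partly fixed.

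Past a Benjamini-Hochberg adjusted p of 0.05 over all genes, Abhd1 and Atraid stood out in 6 of 6 lines, Pisd in 1 (Q92), and Ppp1cb and Slc35f6 in 0. On FPKM values with limma the call of Atraid in Q175 (-0.13) and that of Pisd in Q92 were lost, the second also without the low-count filter. At an unadjusted 0.05, Ppp1cb passed in 3 lines (Q80, Q92 and Q140) and Slc35f6 in 4 (Q20, Q80, Q140 and Q175), and DESeq2 called neither of them in any line. That unadjusted limit took in 1.56% of all genes in Q20, 7.11% in Q80, 3.83% in Q92, 5.49% in Q111, 6.46% in Q140 and 12.6% in Q175. At the adjusted threshold, 0.0123% of all genes tested were called in Q20, 0.136% in Q80, 0.0246% in Q92, 0.037% in Q111, 0.0246% in Q140 and 0.807% in Q175. The members were chosen in these libraries, and nothing is read from these counts beyond the list of names. In Q20 the only 2 genes of 16235 called were Abhd1 and Atraid, and in Q92 the 4 were Abhd1, Atraid, Pisd and Htt. The 4 in Q140 were Abhd1, Atraid, Htt and Galnt11. Q111 called the same genes as Q140 and also Wdr86, on chromosome 5 (-0.89), and Gm8116, on chromosome 9 (-5.40). The longer lists of Q80 and Q175 held genes of many chromosomes. Galnt11, on chromosome 5 and not a member, was called in Q80 (0.58), Q111 (0.47), Q140 (0.43) and Q175 (0.45). Htt itself had log2 fold changes of 0.01 in Q20, -0.20 in Q80, -0.31 in Q92, -0.37 in Q111, -0.35 in Q140 and -0.56 in Q175.

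The 13 libraries of unusual Abhd1 state moved these values. Without them, Abhd1 differed from WT by 3.48 to 3.58 on the log2 scale, Atraid ranged from -0.28 to -0.21 and Pisd from 0.16 to 0.24. Leaving out libraries by their Abhd1 level fixes this shift for Abhd1 and largely for genes chosen for following it, so nothing is read from it. With 6 months included, Pisd was called in 6 lines (0.17 to 0.22), Ppp1cb in 6 (-0.15 to -0.11) and Slc35f6 in 4, with the difference in library names at that age. That fit called 7.35% of all genes in Q20, 3.49% in Q80, 1.6% in Q92, 3.7% in Q111, 4.0% in Q140 and 11.5% in Q175.

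**Figure D3:**
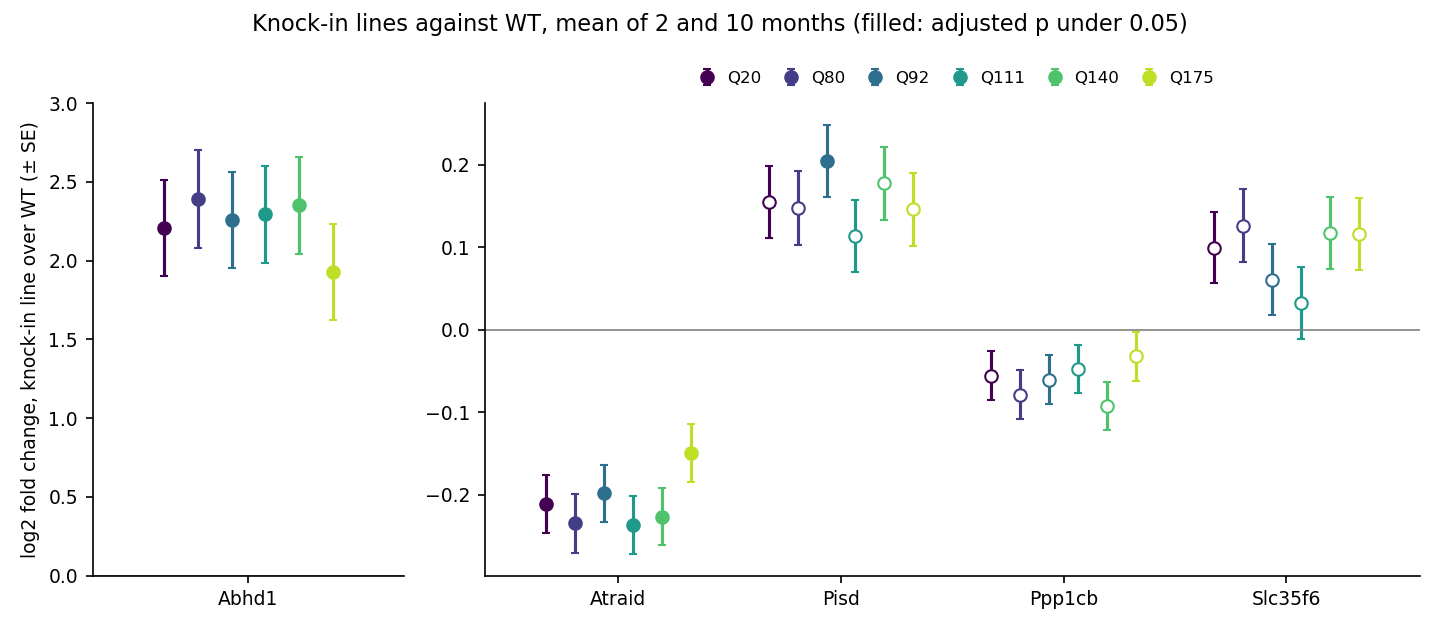
Log2 fold change of each knock-in line over WT, mean of 2 and 10 months, for the 5 genes, with bars for the SE; filled points passed an adjusted p of 0.05. Abhd1 has its own axis, with values from 1.93 to 2.39, and the other genes lie between -0.24 and 0.20.

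The partners were also set beside their groups in the exceptional libraries. Since they were chosen for following Abhd1 over these same libraries, and the exceptions are picked by Abhd1, the choice largely fixes the side, and the counts are a description. For each low knock-in library, a partner was counted when it lay outside the range of the libraries of usual state of the same genotype, age and sex, on the side of WT. Atraid did so in 11 of 11, Ppp1cb in 8, Pisd in 7 and Slc35f6 in 6, whereas Ppp1cb and Slc35f6 each lay outside on the opposite side in 1. Among the 132 high knock-in libraries the same criterion held for 27.3% for each gene, a share set by the group size since 1 library is always highest. Only 2 or 3 such libraries were available for each exception. Against the libraries of usual state of both sexes, Atraid and Ppp1cb each lay outside on the WT side in 7 of 11, and Pisd and Slc35f6 each in 6, with Ppp1cb outside on the opposite side in 1.

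Against the same sex, all 4 partners lay on the WT side in Q111 M1 at 2 months, Q92 M1 at 2 months, Q20 F2 at 6 months and Q175 M2 at 10 months. In Q111 M1 Atraid was 54.5 CPM against 41.9 to 51.0 in the other males, Ppp1cb 123 against 98.3 to 106, Pisd 22.7 against 31.7 to 33.5 and Slc35f6 12.8 against 15.5 to 17.3. In Q92 M1 Atraid was 57.2 CPM against 45.1 to 48.6, Ppp1cb 116 against 101 to 111, Pisd 25.3 against 30.6 to 33.7 and Slc35f6 14.3 against 15.3 to 15.5. In these 2 libraries Pisd and Slc35f6 lay below and Atraid and Ppp1cb above the usual libraries of both sexes as well, whereas Atraid in Q175 M2 at 10 months (45.6 CPM against 44.2 to 52.4) and Ppp1cb in Q20 F2 (89.7 CPM against 84.3 to 97.5) lay within them.

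Q175 gave 3 of 4 partners in M2 at 2 months (not Pisd) and in M3 at 10 months (not Slc35f6), and 2 of 4 in M2 at 6 months (Atraid and Ppp1cb) and F4 at 10 months (Atraid and Slc35f6). In F4 at 10 months Atraid was 62.5 CPM against 50.8 to 52.4 in the other females, with Pisd (25.5 CPM) and Ppp1cb (108 CPM) inside the range of the others. In Q20, F4 at 2 months gave Atraid and Pisd, and in Q92, M4 at 6 months gave Atraid and Ppp1cb. Q20 F4 at 6 months was split: Atraid (50.6 CPM against 46.7 and 46.8) and Pisd (24.2 against 25.003 and 25.2) lay on the WT side, whereas Ppp1cb (79.6 against 84.99 and 85.8) and Slc35f6 (16.9 against 15.1 and 15.2) lay on the opposite side. Against both sexes, Atraid was within the range in 4 of the 11, namely Q175 M2 at 6 months, Q175 M2 and M3 at 10 months and Q92 M4 at 6 months.

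The 2 high WT libraries were not alike. WT M1 at 10 months had Atraid at 48.6 CPM against 49.4 to 59.6 in the other males, Ppp1cb at 103 against 111 to 115 and Pisd at 31.2 against 23.1 to 25.3, each on the side of the knock-in lines, with Slc35f6 (15.7 CPM) inside the range of the others. WT F4 at 2 months had Atraid at 48.3 CPM against 57.6 to 60.7 in the other females, though within the 47.1 to 60.7 CPM of both sexes, and its other partners were inside the range. Htt, measured in the same libraries, lay above the same-sex others in 7 of the 11 low knock-in libraries and below in 1, and inside the range in both high WT libraries. Preb lay above in 5 and below in 3 of the 11. Group size alone places many libraries outside such small ranges, 27.3% of the high knock-in libraries on the WT side for each partner. That share was not computed for Htt or Preb, and nothing is read from their counts. The libraries with Htt above include every low Q20 library, and in Q20 the log2 fold change of Htt over WT was 0.01. Against both sexes, Htt lay above in 4 and Preb in 1 of the 11, with the others within the range.

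**Figure D4:**
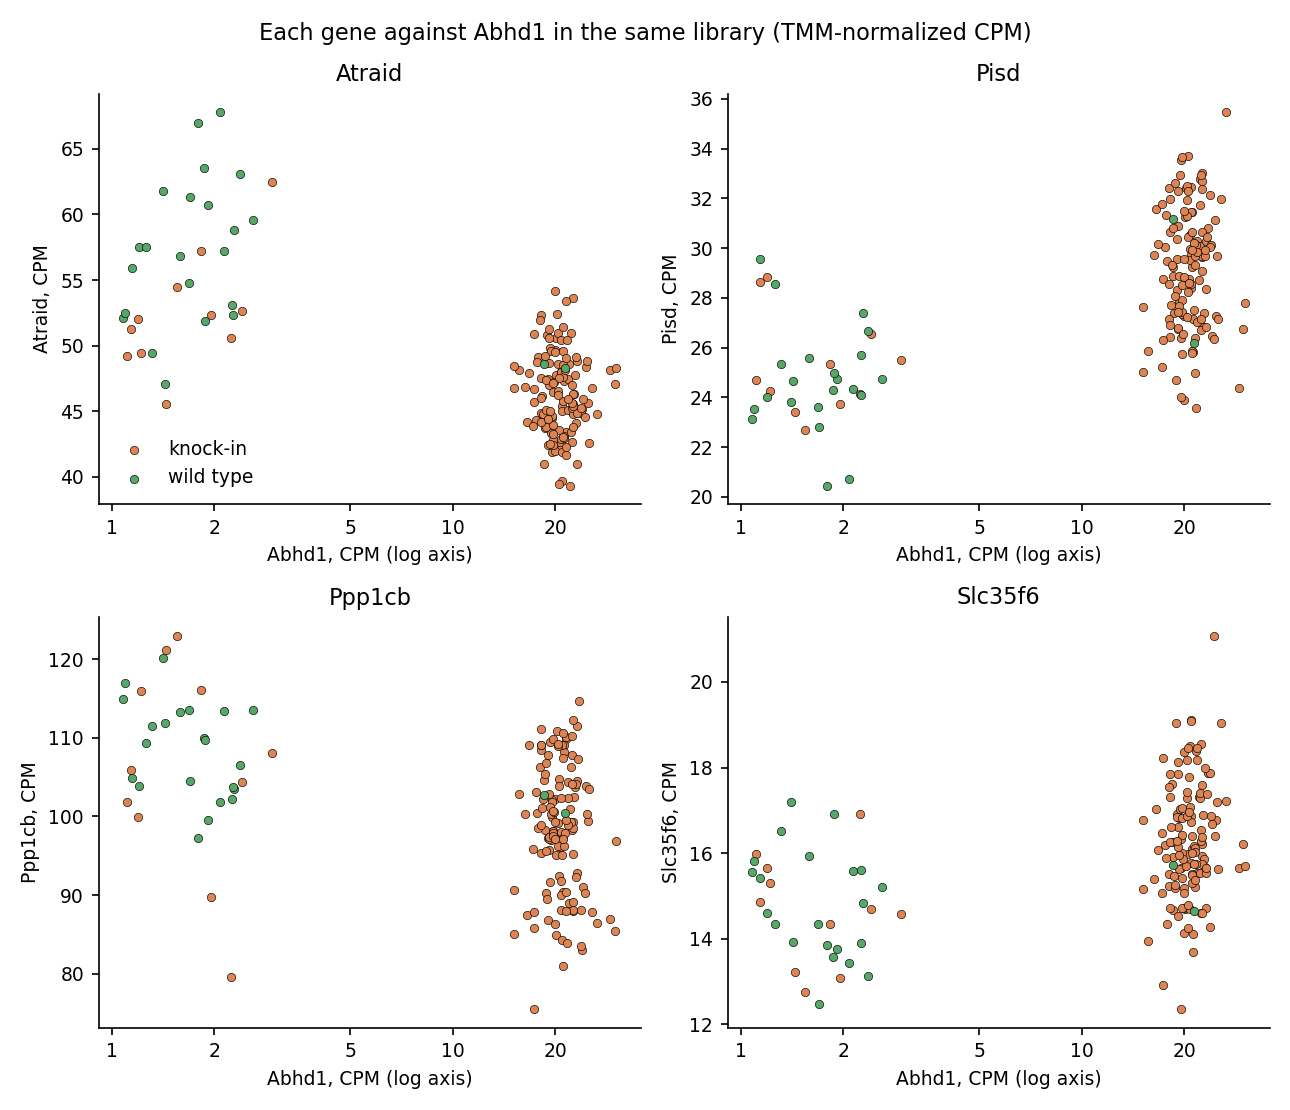
Each of the 4 other genes against Abhd1 in the same library, both as normalized CPM with Abhd1 on a log axis, knock-in libraries in orange and WT in green. The libraries form 2 groups, below 2.95 and above 15.1 CPM of Abhd1, with knock-in and WT libraries in both and the values of the other genes overlapping between them.

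Over all libraries the Spearman correlation with Abhd1 was -0.46 for Atraid, 0.42 for Pisd, 0.36 for Slc35f6 and -0.33 for Ppp1cb, ranking 1, 4, 35 and 129 by size among 16234 genes. Pearson's r on log2 levels was -0.68, 0.59, 0.42 and -0.41 and ranked them 1, 2, 3 and 4. These are descriptions of the pattern for which the genes were named, over libraries that share genotype, age and processing, and the libraries form 2 clusters. Within the 134 high libraries r was -0.07 for Atraid, 0.05 for Pisd, 0.17 for Slc35f6 and -0.08 for Ppp1cb, and within the 33 low libraries it was 0.42, -0.13, -0.22 and -0.28. Within a state no absolute r exceeded 0.42. For Atraid and Slc35f6 the sign in the low libraries was opposite to that over all libraries by both measures, and for Pisd by r but not by Spearman's rho (0.096). As deviations from the mean of each genotype, age and sex, r over all libraries was -0.47 (Atraid), 0.36 (Pisd), 0.27 (Slc35f6) and -0.35 (Ppp1cb).

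The 10 other genes with the largest Spearman correlation with Abhd1 were Pepd, Nat10, Sntb2, Clpb, Hspbp1, Acadvl, Wdr18, Mad1l1, Abca6 and Uck1, with absolute values from 0.39 to 0.44. Only Mad1l1 is on chromosome 5, and it lies far from Htt, at 140008689. Their Pearson r were smaller, 0.44 by rank against 0.20 by r for Pepd, the peptidase for dipeptides ending in proline. Within 20 Mb of Htt, none of 218 other tested genes reached the smallest member's absolute Pearson r, and the largest was 0.35 for Galnt11, a glycosyltransferase gene. By Spearman's rho 3 of them, Gpn1 (0.35), Letm1 (0.34) and Cacna2d1 (-0.34), exceeded Ppp1cb (-0.33). Ranked by Pearson r, the genes next after the members were Galnt11 (rank 5), Dus3l (rank 6, 0.31) and Rbks (rank 7, -0.30). Galnt11 and Rbks are on chromosome 5, and Rbks starts at 31624439, between the outermost members. The members were chosen for this likeness.

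**Figure D5:**
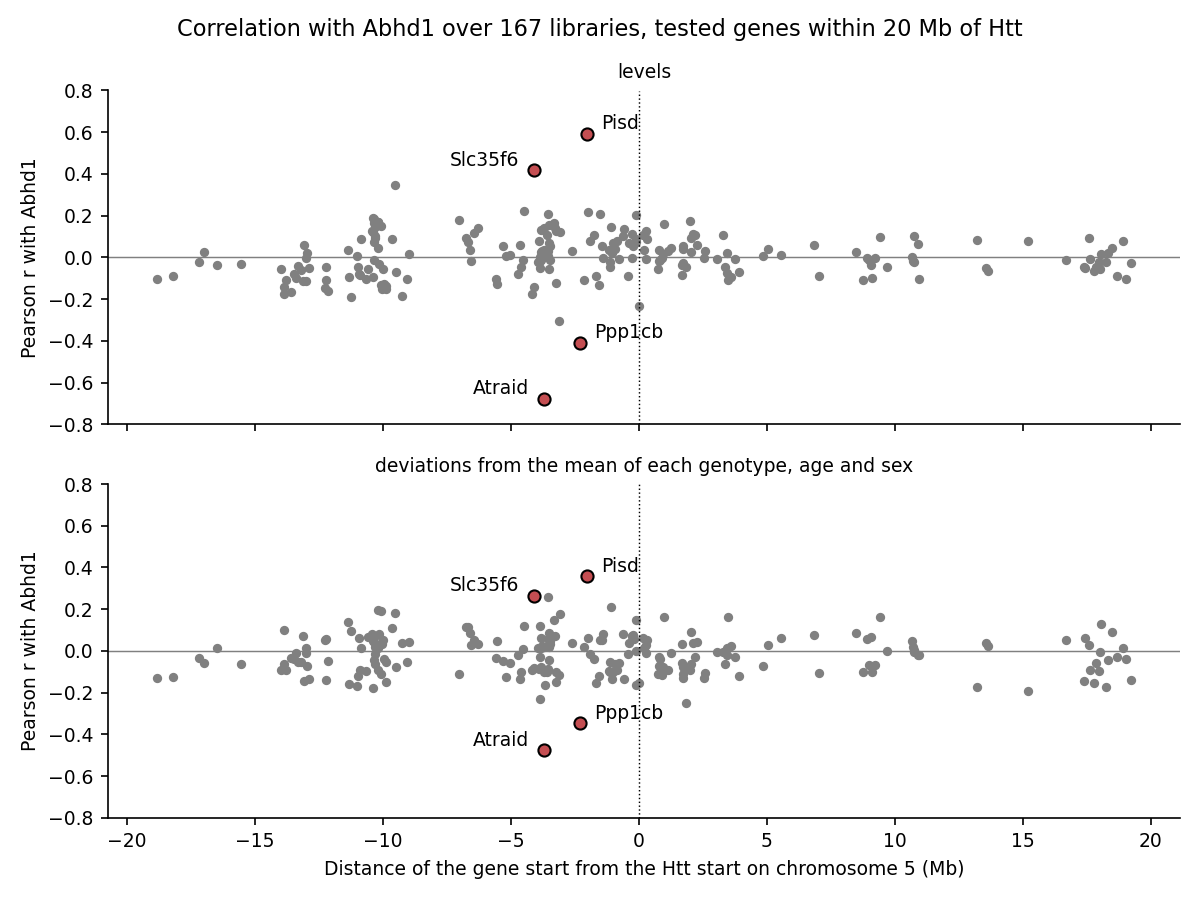
Pearson r with Abhd1 over all libraries for the tested genes within 20 Mb of the Htt start, by distance from it, for levels (upper panel) and for deviations from the mean of each genotype, age and sex (lower panel), with the 4 partners in red. For levels the partners lie at -0.68, -0.41, 0.42 and 0.59, outside the range of the 218 other genes, whose largest absolute r is 0.35. For deviations the largest absolute r of the others is 0.26 and the smallest of the partners 0.27 (Slc35f6), and by Spearman's rho of levels 3 of the others exceed Ppp1cb.

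The interval between the outermost members, 2.14 Mb long, holds 87 annotated genes, 45 of them protein coding, and 35 genes that passed the filter on low counts. Of the 30 tested genes that are not members, 0 were called by edgeR in any line contrast, and 3 had an unadjusted p under 0.05 in at least 3 of the 6 lines: Rbks, the ribokinase gene (4 lines, log2 -0.21 to -0.10), Agbl5, a tubulin deglutamylase gene (3 lines), and Slc4a1ap (3 lines). These 3 were picked after their values were seen, and the share of all genes that met this criterion was not computed. Over all genes tested, 0.0123% (Q20) to 0.807% (Q175) were called per line. The 0 called among these 30 therefore does not set them apart. Preb, which overlaps Abhd1, was called in 0 of 6 lines, with log2 fold changes from -0.11 to 0.11 and levels of 59.6 to 118 CPM over all libraries. Its medians were 81.9 CPM in knock-in and 82.5 CPM in WT libraries. Slc5a6, a biotin and pantothenate transporter gene, overlaps 613 bases of Atraid and had a median of 18.5 CPM. The annotated genes that overlap Pisd, Ppp1cb and Slc35f6 and are in the tables reached at most 0.334 CPM.

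Sex, which did not choose the members, was tested in the same fit. The male libraries include Q80 M5 at 2 months, which did not match its sex label. Atraid was higher in females, at 49.95 ± 5.36 CPM in 83 female libraries and 46.4 ± 4.55 CPM in 84 male libraries (SD), with a log2 difference of 0.10 ± 0.02 (SE, edgeR adjusted p = 1.05e-09) and a higher female mean in 18 of the 21 groups of genotype and age. Ppp1cb was lower in females, at 96.7 ± 7.85 CPM against 103.7 ± 8.78 CPM in males, with a log2 difference of -0.10 ± 0.01 (edgeR adjusted p = 4.04e-12) and a lower female mean in every one of the 21 groups. Slc35f6 differed less, at 15.7 ± 1.52 CPM in females and 16.2 ± 1.39 CPM in males (log2 -0.04 ± 0.02, edgeR adjusted p = 0.027), and the female mean was higher in 6 of 21 groups. Abhd1 (0.00 ± 0.13) and Pisd (0.00 ± 0.02) did not pass the threshold. Of all genes tested, 73.8% passed it for sex, 38.6% as higher and 35.2% as lower in females, so that 3 of the 5 members is close to that share. On FPKM values with limma, the median of all genes moved by 0.12 towards females, and Ppp1cb (0.02) and Slc35f6 (0.06) turned to the other direction, while Pisd passed (0.13).

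Age was tested between 10 and 2 months over the 7 genotypes. None of the 5 genes passed the threshold in edgeR, against 26.4% of all genes, and none did so at an unadjusted 0.05. The log2 differences, 10 over 2 months, were -0.13 ± 0.15 for Abhd1, 0.00 ± 0.02 for Atraid, -0.03 ± 0.02 for Pisd, 0.02 ± 0.02 for Ppp1cb and -0.02 ± 0.02 for Slc35f6. Ppp1cb passed with limma on FPKM values (0.07). Without the 13 libraries of unusual Abhd1 state Abhd1 passed at a similar size (-0.14 ± 0.04, edgeR adjusted p = 0.00459), where 22.9% of all genes did; those libraries were left out by their Abhd1 level. The knock-in medians of Abhd1 at 2, 6 and 10 months were 21.1, 20.7 and 19.1 CPM, and the WT medians 2.03, 1.69 and 1.59 CPM.

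Repeat length was tested within the knock-in libraries of all 6 lines. The slope per 100 CAG repeats was 0.02 ± 0.13 log2 for Abhd1, and 0.01 to 0.02 for the other 4, and 0 of 5 passed the threshold in edgeR, where 2.93% of all genes did. Htt fell by 0.36 ± 0.03 per 100 repeats.

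The relatives of the members were taken from lists of genes. Against WT, 0.0123% (Q20) to 0.807% (Q175) of all genes tested were called per line. Few or no calls in lists of this size therefore do not set the relatives apart. Of 19 genes of the ABHD family tested, only Abhd1 itself was called against WT in any line, and the list's median log2 fold change ran from -0.01 (Q20) to 0.03 (Q175), beside 0.00 (Q20) and 0.01 (Q175) over all genes. Between the sexes 6 members of the family were higher and 9 lower in females, 78.9% of the list beside 73.8% of all genes. Examples were Abhd2, a monoacylglycerol lipase gene, at a log2 difference of 1.64 ± 0.05, and, between the ages, Abhd14b at -0.12 ± 0.03. At 10 months 7 of the 19 were lower and 0 higher than at 2 months. That was 36.8% of the list, beside 26.4% of all genes called in either direction and 12.8% called lower. For age, 33.3% of the phospholipid list, 20.0% of the phosphatase list and 29.4% of the transporter list below were called. Of 15 genes of phosphatidylserine and phosphatidylethanolamine metabolism, Pisd in Q92 was the only one called against WT. Between the sexes 7 were higher and 6 lower in females (86.7% of the list, beside 73.8% of all genes), among them Ptdss1, the phosphatidylserine synthase gene (0.39 ± 0.02), Etnk1, an ethanolamine kinase gene (-0.51 ± 0.03), and Chpt1, a cholinephosphotransferase gene (-0.91 ± 0.03).

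Of 15 genes for the catalytic and regulatory subunits of protein phosphatase 1, 0 were called against WT in any line, and between the sexes 5 were higher and 5 lower in females (66.7%, beside the same 73.8%), with Ppp1r15b, a subunit acting on eIF2α, at 0.21 ± 0.02 and Ppp1r3c, a glycogen-targeting subunit, at -0.91 ± 0.12. Of 17 genes of SLC35 transporters, 0 were called against WT, and 4 were higher and 10 lower in females (82.4%, again beside 73.8%), led by Slc35f2 at -3.09 ± 0.12 and Slc35d2 at -0.52 ± 0.03. With 0.0123% (Q20) to 0.807% (Q175) of all genes called against WT per line, 0 called does not set either list apart. The median log2 difference between the sexes was -0.05 for the ABHD list, 0.07 for the phospholipid list, 0.04 for the phosphatase list and -0.07 for the transporter list, beside 0.01 over all genes.

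Library totals lay between 32025244 and 57151736 counts (median 38663519), and no pair of libraries held identical values. The library Q80 M5 at 2 months did not match its sex label, and its Abhd1 state is that of the other Q80 libraries. All 6 hepatocyte markers were detected in every library, summing to 67098 to 147595 CPM in all. Skeletal muscle markers reached 558 CPM in a knock-in library against 1.56 CPM in WT libraries, red cell markers 6271 against 319 CPM and bile duct markers 95.9 against 18.4 CPM; their part in the results was not tested. In bulk liver, fewer cells of a type and less RNA per cell cannot be told apart.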

How the data were processed

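PolyA RNA-seq was analysed from 167 mouse livers' libraries. The authors deposited expected counts per gene, which need not be whole (14.1% were not), and FPKM values per gene, as the values in the tables show. CASAVA 1.8.2 is named in the submitters' processing notes; the aligner, the counting program, the strand setting and the tables' genome build were not given in the sources used here. Of 39179 identifiers, 37693 matched the GRCm38 annotation by their identifier and 1486 did not. Total counts ran from 32025244 to 57151736 per library, and intervals are not given since the spread between libraries is larger than counting error at these levels.

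Counts were rounded and tested with edgeR 4.0.16 (R 4.3.3), normalized by the trimmed mean of M values, with its low-count filter on groups of genotype, age and sex leaving 16235 genes, in 1 fit of 21 groups of genotype and age plus sex over all 167 libraries. Each line was compared with WT as the mean of 2 and 10 months. The repeat slope was fitted in 143 knock-in libraries with age and sex. P-values were adjusted by Benjamini-Hochberg over all genes, with a threshold of 0.05. Levels are normalized CPM, with 0.1 added before logs. Abhd1 states are the sides of the widest gap with at least 10 libraries on each side. The alternatives were DESeq2 1.42.0, other size factors, no low-count filter, limma 3.58.1 on log2(FPKM + 0.1), a replicate block, and leaving out Q80 M5 at 2 months; adding 6 months and leaving out 13 libraries were chosen after seeing the data. The edgeR comparison of Q111 with WT was tried on simulated counts. No table column lacked a sample.

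The 5 genes and the gene lists were chosen with earlier results of these data known. Named beside them were Htt, the 10 other genes with the largest Spearman correlation with Abhd1, and overlapping genes. The rule also took genes called in at least 3 lines between the outermost members (there were 0). From each list it took up to 3 genes with the smallest p. Galnt11, Dus3l and Rbks were among those named after their values were seen.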

Additional observations from a re-analysis of the deposited data

Results flagged for a closer look

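A library was picked out where, in a group of 8 of 1 genotype and age (7 for Q80 at 10 months), its gap to the nearest other library was large against the range of the group (Dixon's 95% criterion). Of 105 pairs of gene and group, 13 held such a library, 8 for Abhd1 and 5 for the others, where chance picks out about 1 in 20 groups. These lay in 9 libraries, each of unusual Abhd1 state. Those of Abhd1 restate the gap that defined the states, and the other genes were chosen for following Abhd1 over these libraries, so the number is not read against chance.

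Abhd1 was far below its group in Q111 M1 at 2 months (1.55 CPM), Q175 M2 at 2 months (1.14 CPM), Q175 M2 at 6 months (1.11 CPM), Q20 F4 at 2 months (2.41 CPM), Q92 M1 at 2 months (1.83 CPM) and Q92 M4 at 6 months (1.19 CPM). It was far above its group in WT M1 at 10 months (18.6 CPM) and WT F4 at 2 months (21.3 CPM). The groups with more than 1 library of unusual state (Q20 at 6 months, Q175 at 10 months) gave none for Abhd1, since each such library has a near neighbour.

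Atraid was far above its group in Q175 F4 at 10 months (62.5 CPM, others at most 52.4) and Q92 M1 at 2 months (57.2 CPM, others at most 49.1). Pisd was far below in Q92 M1 at 2 months (25.3 CPM, others at least 29.8). Ppp1cb was far above in Q175 M2 at 6 months (101.8 CPM, others at most 88.0), and Slc35f6 was far below in Q111 M1 at 2 months (12.8 CPM, others at least 15.5). No explanation of these values was tested.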

How the results depend on the processing

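Of the values for Htt and the 5 genes under an alternative, 384 kept direction and side of the threshold, 23 newly passed it, 5 no longer did and 2 changed sign. The sign changes were between the sexes with limma on FPKM, for Ppp1cb (0.018) and Slc35f6 (0.063); there 77.2% of called genes were higher in females, against 52.3% in the edgeR fit, and between 10 and 2 months 76.0% against 51.4%. Called genes per line moved from 2 in Q20, 22 in Q80, 4 in Q92, 6 in Q111, 4 in Q140 and 131 in Q175 as follows. DESeq2 called 7 in Q20, 36 in Q80, 13 in Q92, 12 in Q111 and 9 in Q140. With limma on FPKM there were 3 in Q80, 2 in Q92 and 39 in Q175. With 6 months included there were 1193 in Q20, 567 in Q80, 259 in Q92, 600 in Q111, 649 in Q140 and 1860 in Q175. Q80 fell to 4 without the library M5. The repeat slope called 474 genes, against 735 without the low-count filter, 178 with limma on FPKM and 206 without the 13 libraries; the cause was not tested. A fixed limit of 1 CPM put 0 libraries in the low state. Pearson's r with Abhd1 was -0.68 for Atraid and 0.59 for Pisd, beyond their Spearman values. Pisd in Q92 missed the threshold without the filter and on FPKM, as did Atraid in Q175 (-0.13) and Htt in Q92 (-0.26) on FPKM, and Slc35f6 for sex without the filter. Without the 13 libraries Abhd1 was lower at 10 months (-0.14) and past the threshold.

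Libraries of the same number, age and sex in different genotypes did not meet the criterion for pairing, a correlation of deviations over 0.1 in every pair: over 492 pairs it ran from -0.30 to 0.36 with a median of 0.00, with 115 pairs over 0.1 and 73 under -0.1. The criterion asked this of every pair, so missing it does not show that libraries of the same number were unrelated. The replicate block lowered the calls in Q80 to 4 and changed no call of the 5 genes; Htt passed for age (-0.08).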
